A study of Mus musculus with 21 samples.

Results

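The constitutive proteasome subunits are the proteins that build the 26S proteasome present in nearly every cell. The genes described here carry a Psma, Psmb, Psmc or Psmd symbol followed by a number, without the inducible Psmb8, Psmb9 and Psmb10, and had a detection p under 0.01 on at least 3 of 21 arrays. Of 36 such genes on the array, 29 were measured, among 11034 genes in all. The rule for members uses their symbols and their detection, and no difference between groups. It was set with earlier results of these data known. The 7 genes left out, Psma1, Psma3, Psma6, Psma8, Psmb11, Psmc6 and Psmd3, were below that detection limit on all 21 arrays. Just outside the limit, Psmc6 had a smallest detection p of 0.0118 and Psma8 of 0.0150. Among the measured genes, those detected on the fewest arrays were Psmd2, on 17, and Psmd9, on 18. Psmd6 was detected on 20 arrays, and the other 26 genes on all 21. Psma8 and Psmb11 are known as variant subunits of the testis and the thymus. The other genes below the limit encode general subunits, so these probes give no information on those subunits here.

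RNA was measured on 1-colour bead arrays in 15 tumors of aP2-Cre/+;SmoM2/+ mice, 3 tumors of Myogenin-Cre/+;SmoM2/+ mice and 3 sternocleidomastoid (neck) muscles of SmoM2/+ mice, all of mixed C57Bl/6 and 129X1/SvJ background. The tumors serve as a model of embryonal rhabdomyosarcoma, a cancer with features of skeletal muscle. SmoM2 is an activated form of Smoothened, the transducer of Hedgehog signalling, and the muscle donors carried the allele without a Cre in their label. aP2 (Fabp4) is a lipid-binding protein of adipocytes and its Cre is described as a non-muscle driver, while Myogenin is a transcription factor of differentiating muscle and its Cre is described as a myotube driver. The sources used here give no ages. Each tumor is labelled with a mouse of its own; the muscle samples are only numbered, so p-values against muscle may rest on a spread that is partly technical. The arrays fall into 5 sets that the authors had normalized separately. The 3 muscle arrays share a set with aP2-Cre tumors 128, 135 and 140, and the 3 Myogenin-Cre tumors share another with aP2-Cre tumors 89, 90 and 95.

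The proteasome degrades proteins tagged with ubiquitin. Its barrel consists of outer alpha rings, which gate the entrance, and inner beta rings, in which Psmb5, Psmb6 and Psmb7 carry the proteolytic sites. A cap sits on the barrel: its base holds the ATPases Psmc1 to Psmc6, which unfold substrates, and the receptors for ubiquitin, and its lid holds the deubiquitinase Psmd14. In skeletal muscle this system removes myofibrillar proteins during atrophy, with the muscle ubiquitin ligases Trim63 and Fbxo32. When proteasomes are overloaded or inhibited, the transcription factor Nfe2l1 is known to raise the subunit genes together through antioxidant response elements in their promoters.

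Promoter sequence was available for 24 of the 29 measured genes, as 25 windows of 250 bases before to 50 bases after the annotated start (RefSeq, GRCm38.p6). The core of the antioxidant response element, TGACNNNGC, was searched on both strands. It occurred in 4 of the 25 windows, 16% of them, and in 12.4% of all 32851 windows of the table. The CCAAT box, which binds the factor NF-Y and can share at most 1 end letter with that core, occurred in 8 of the 25 windows (32%) and in 37.4% of all windows. Both shares are descriptions of letters in these windows. The 4 windows with the element core are printed because 2 of them belong to the catalytic subunits called between the 2 kinds of tumor, and the others to subunits called lower in aP2-Cre tumors than in muscle. All 4 of these calls were lost in some of the other fits given below. A relation between the core and the calls was not tested. Capitals mark the core, which is on the printed strand in Psmb5, Psmb6 and Psmd9 and on the opposite strand in Psmd12.
Psmb5, chr14:54617946-54618245, minus strand: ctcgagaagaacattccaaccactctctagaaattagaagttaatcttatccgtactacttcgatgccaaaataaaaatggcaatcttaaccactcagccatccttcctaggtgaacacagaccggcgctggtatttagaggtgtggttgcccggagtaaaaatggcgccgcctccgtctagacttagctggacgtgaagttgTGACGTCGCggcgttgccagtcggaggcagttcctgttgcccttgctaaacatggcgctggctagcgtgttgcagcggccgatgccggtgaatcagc
Psmb6, chr11:70525107-70525406, plus strand: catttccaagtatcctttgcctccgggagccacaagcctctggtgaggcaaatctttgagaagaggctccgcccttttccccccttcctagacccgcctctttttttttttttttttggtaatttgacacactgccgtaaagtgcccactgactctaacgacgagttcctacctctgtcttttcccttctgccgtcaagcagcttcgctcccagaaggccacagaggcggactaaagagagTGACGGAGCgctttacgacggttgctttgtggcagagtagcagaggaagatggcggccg
Psmd9, chr5:123227940-123228239, plus strand: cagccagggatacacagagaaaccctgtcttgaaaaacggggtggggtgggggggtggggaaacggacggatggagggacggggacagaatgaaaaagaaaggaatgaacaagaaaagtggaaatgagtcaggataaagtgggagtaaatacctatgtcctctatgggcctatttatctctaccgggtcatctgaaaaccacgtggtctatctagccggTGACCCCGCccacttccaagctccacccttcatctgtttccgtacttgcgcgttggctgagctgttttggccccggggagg
Psmd12, chr11:107479278-107479577, plus strand: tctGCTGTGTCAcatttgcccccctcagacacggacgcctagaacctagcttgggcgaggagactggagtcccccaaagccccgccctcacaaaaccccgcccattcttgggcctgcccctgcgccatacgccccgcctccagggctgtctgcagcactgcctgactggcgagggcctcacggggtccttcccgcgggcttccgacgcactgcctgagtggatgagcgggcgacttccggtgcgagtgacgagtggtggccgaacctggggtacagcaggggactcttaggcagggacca
The first base of the core lay 47 bases before the start of Psmb5, 9 before that of Psmb6, 31 before that of Psmd9 and 247 before that of Psmd12. No window was available for Psmb1, Psmb2, Psmb7, Psmc3 and Psmd7.

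Between 35.7% and 39.8% of all probes were detected on the aP2-Cre tumor arrays, 34.4% to 36.98% on the Myogenin-Cre tumor arrays and 32.0% to 34.3% on the muscle arrays. All 3 Hedgehog genes listed as a check (Ptch1, Hhip, Gli2) were higher in both kinds of tumor than in muscle. Of the 8 markers of mature muscle, 6 were lower in aP2-Cre tumors and 4 in Myogenin-Cre tumors than in muscle. Their median log2 changes were -1.83 and -1.38, and 29.8% and 23.9% of all genes were lower. As a sum, to which the brightest genes add most, they were still present in tumors. The summed normalized intensity was 80337 to 119034 in aP2-Cre tumors, 104741 to 115723 in Myogenin-Cre tumors and 164995 to 174225 in muscle. All 6 markers of developing muscle were higher in aP2-Cre tumors than in muscle and 5 of 6 in Myogenin-Cre tumors. Of all genes, 34.0% were called higher in aP2-Cre tumors than in muscle and 25.2% in Myogenin-Cre tumors. The counts of Hedgehog, developing muscle and cell cycle genes stand beside these shares. Of 7 adipocyte markers 5 were measured and all 5 were lower in both kinds of tumor than in muscle, with a summed intensity of 248 to 1668 in aP2-Cre tumors, 882 to 1274 in Myogenin-Cre tumors and 5551 to 6931 in muscle. Both measured brown adipocyte markers of 3 listed were also lower in both, with sums of 490 to 1662 in aP2-Cre tumors, 2148 to 2452 in Myogenin-Cre tumors and 6998 to 11509 in muscle. Of 7 cell cycle genes 5 were measured, and 4 were higher in aP2-Cre tumors and 2 in Myogenin-Cre tumors than in muscle, with sums of 351 to 1286 in aP2-Cre tumors, 464 to 1076 in Myogenin-Cre tumors and 239.6 to 318 in muscle. These cell type differences stand beside every tumor and muscle comparison here, and their part in the results was not tested. In tissue RNA, fewer cells of a type and less RNA per cell cannot be told apart.

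Most subunit genes were modestly higher in aP2-Cre tumors than in muscle, while a few, including catalytic ones, were lower. Of the 29 measured subunits, 16 were called higher (limma, Benjamini-Hochberg adjusted p under 0.05 over all genes) and 6 lower, and 7 were not called. Among all 11034 genes, 34.0% were called higher and 29.8% lower. In 12 subunits every aP2-Cre tumor lay above every muscle sample and in 3 every tumor lay below, against 25.1% and 22.9% of all genes. The median log2 change was 0.28 over the subunits and 0.09 over all genes. When each array's median was used for scaling in place of quantiles, the median moved to 0.44 over all genes and 0.38 over the subunits, and 45.9% of all genes were called higher and 15.6% lower. The subunits' median was then below that of all genes, so whether the subunits as a list sat above or below other genes depended on the scaling. Within the array set that holds both groups (3 tumors, 3 muscles), 15 subunits were called higher and 2 lower, against 31.1% and 28.2% of all genes. Of the calls on all arrays, 14 of the 16 higher and 2 of the 6 lower were also made there, and the medians were 0.33 for the subunits and 0.08 for all genes. The authors' own values, which they normalized set by set, gave 6 higher and 4 lower over all arrays, against 28.1% and 26.5% of all genes, so that the share of subunits called higher was then below that of all genes. Within the shared set the authors' values gave 15 higher and 2 lower, against 30.9% and 28.0% of all genes. Without each muscle array in turn, 13 of the 16 higher and 3 of the 6 lower calls were kept in every fit. Of the 29 genes, 14 had several detected probes, and the probes had opposite signs in 6 of them.

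**Figure D1:**
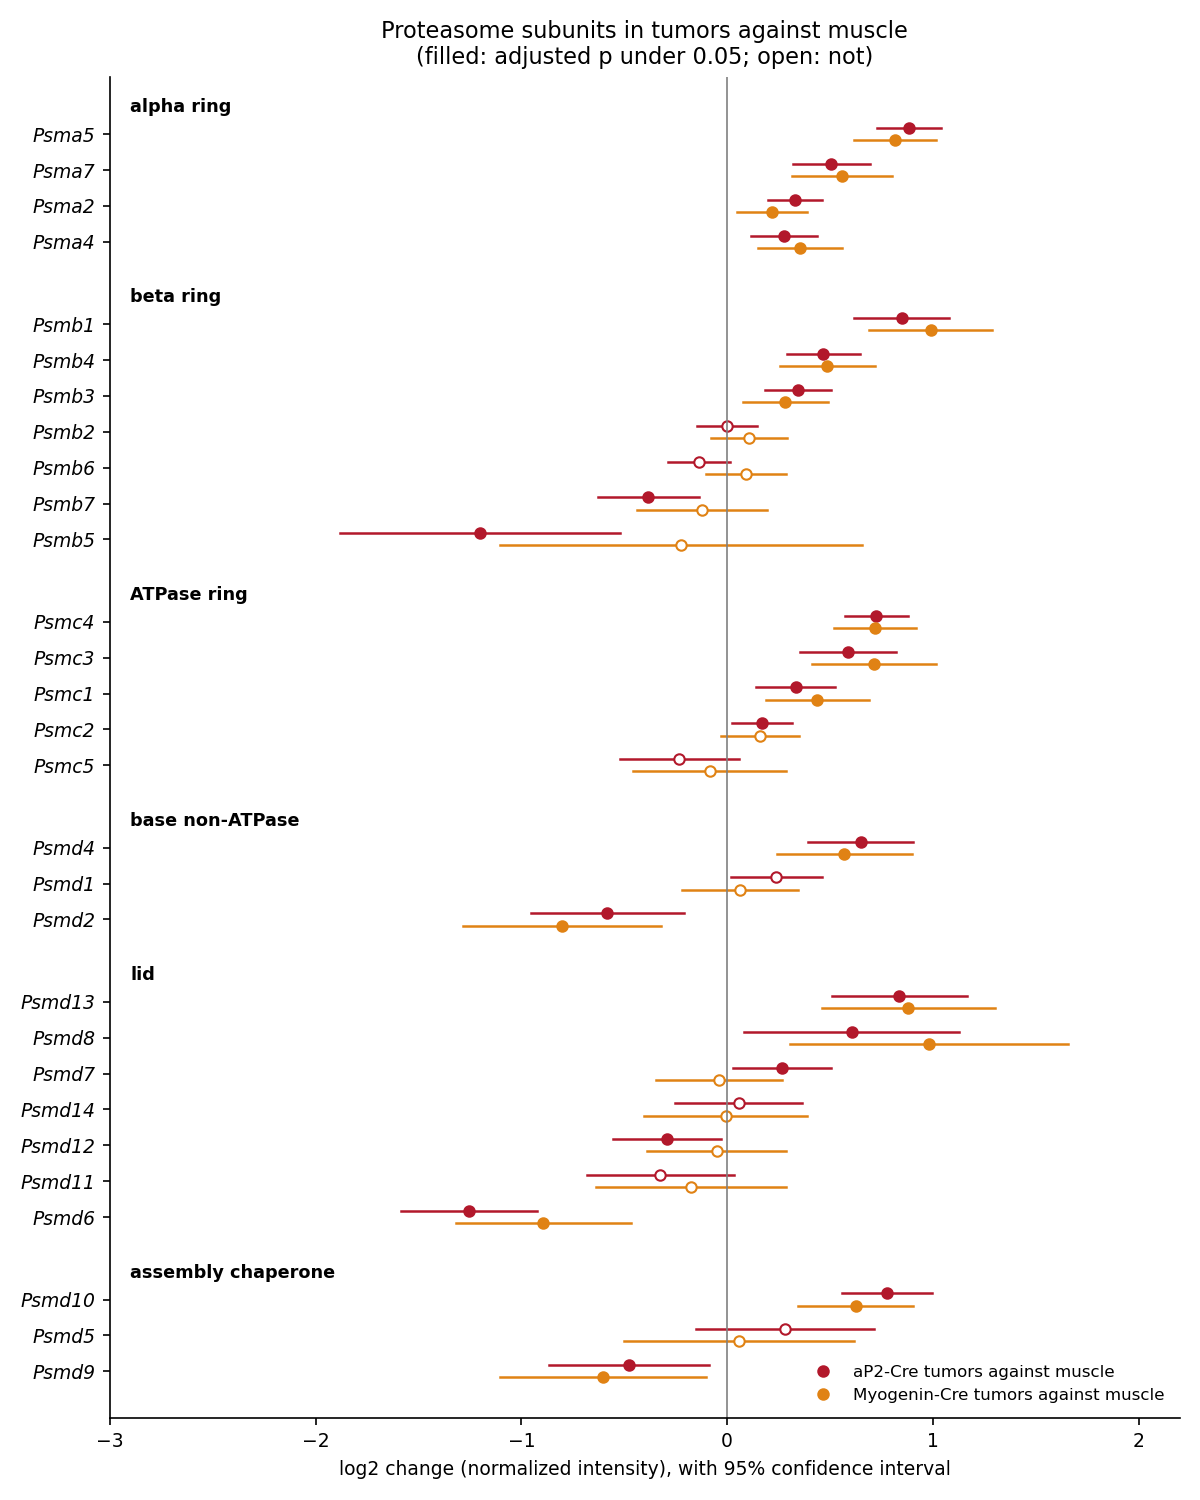
Log2 change with its 95% confidence interval for each of the 29 subunits, grouped by their place in the proteasome, in aP2-Cre tumors and in Myogenin-Cre tumors against muscle; filled points had an adjusted p under 0.05. All 4 measured alpha ring subunits were right of 0 in both comparisons, and Psmd6 and Psmd2 were left of 0 in both; under median scaling Psmd9 in aP2-Cre tumors moved to 0.02, right of 0, and under the authors' values Psmc2 moved to -0.06.

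All 4 measured alpha ring subunits were higher in both kinds of tumor than in muscle. Psma5 had the largest change: its log2 intensity was 12.69 at the lowest, 12.97 at the median and 13.16 at the highest in aP2-Cre tumors, 12.82, 12.99 and 12.87 in Myogenin-Cre tumors, and 12.04, 12.10 and 12.10 in muscle. Every tumor of either kind lay above every muscle sample. The log2 change was 0.89 ± 0.07 (SE) in aP2-Cre tumors (adjusted p = 2.13e-09) and 0.82 ± 0.10 in Myogenin-Cre tumors (adjusted p = 7.75e-07), or 1.85-fold and 1.76-fold. Psma7 changed by 0.51 and 0.56, Psma2 by 0.33 and 0.22 and Psma4 by 0.28 and 0.36, in aP2-Cre and Myogenin-Cre tumors in that order. Psma4, the smallest of these in aP2-Cre tumors, ranged there over 12.005, 12.17 and 12.36 (lowest, median, highest), was 12.24, 12.23 and 12.30 in Myogenin-Cre tumors, and was 11.88, 11.82 and 12.01 in muscle. The lowest aP2-Cre tumor lay just under the highest muscle sample. In the shared array set the change of Psma2 in aP2-Cre tumors was 0.24, with an adjusted p of 0.0667. Psma4 lost both calls under the authors' values, at 0.04 in aP2-Cre tumors (adjusted p = 0.883) and 0.16 in Myogenin-Cre tumors (adjusted p = 0.614), and under median scaling, at 0.34 (adjusted p = 0.0876) and 0.33 (adjusted p = 0.243). With the mean of its probes Psma5 was 0.52 in Myogenin-Cre tumors (adjusted p = 0.0754).

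In the beta ring 3 of 4 measured structural subunits were called higher in both kinds of tumor, and none of the 3 catalytic ones. With 34.0% and 25.2% of all genes called higher, groups of 3 or 4 genes are too small to tell apart by such counts. Among the structural ones, Psmb1, Psmb3 and Psmb4 were higher in both kinds of tumor, and Psmb2 was called in neither. Psmb1 had a lowest, median and highest log2 intensity of 11.29, 11.68 and 12.06 in aP2-Cre tumors, values of 11.72, 11.69 and 12.08 in Myogenin-Cre tumors, and 10.76, 10.94 and 10.82 in muscle. No tumor reached down to the muscle values. Its change was 0.85 ± 0.11 in aP2-Cre tumors (adjusted p = 1.05e-06) and 0.99 ± 0.14 in Myogenin-Cre tumors (adjusted p = 1.01e-05), the largest rise of any subunit in Myogenin-Cre tumors. Psmb4 changed by 0.47 and 0.49 and Psmb3 by 0.34 and 0.28. Psmb2 changed by 0.00 in aP2-Cre tumors, with a 95% interval of -0.14 to 0.14, and by 0.11 in Myogenin-Cre tumors, with an interval of -0.08 to 0.29.

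None of the 3 catalytic subunits was called higher in either kind of tumor, beside 34.0% and 25.2% of all genes. Psmb5, which carries the chymotrypsin-like site, had a lowest, median and highest log2 intensity of 7.55, 8.95 and 9.62 in aP2-Cre tumors, values of 9.46, 10.03 and 9.87 in Myogenin-Cre tumors, and 9.79, 10.32 and 9.92 in muscle. Every aP2-Cre tumor was under every muscle sample, while the Myogenin-Cre tumors overlapped muscle. The change was -1.20 ± 0.33 in aP2-Cre tumors (2.30-fold lower, adjusted p = 0.00303) and -0.22 ± 0.42 in Myogenin-Cre tumors (adjusted p = 0.688). In the shared array set Psmb5 was -1.15 in aP2-Cre tumors against muscle (adjusted p = 0.0171).

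Psmb7, which carries the trypsin-like site, ranged over 11.82, 12.17 and 12.45 in aP2-Cre tumors (lowest, median, highest), was 12.50, 12.34 and 12.53 in Myogenin-Cre tumors, and was 12.59, 12.49 and 12.65 in muscle. All aP2-Cre tumors lay below all muscle samples. The change was -0.38 ± 0.12 in aP2-Cre tumors (adjusted p = 0.00721) and -0.12 ± 0.15 in Myogenin-Cre tumors (adjusted p = 0.528). All 4 probes of Psmb7 were lower in aP2-Cre tumors, from -0.38 to -0.96, and the call on the probe used did not hold in the shared array set (-0.19, adjusted p = 0.0674) or under median scaling (-0.39, adjusted p = 0.102). In Myogenin-Cre tumors the 4 probes ran from -0.08 to -0.82. The dimmest probe, at -0.82, was past the threshold there (limma over probes, adjusted p = 0.00313), and another at -0.47 was not (adjusted p = 0.0621). Psmb6, which carries the caspase-like site, ranged over 11.96, 12.10 and 12.28 in aP2-Cre tumors, was 12.33, 12.32 and 12.33 in Myogenin-Cre tumors, and was 12.31, 12.15 and 12.25 in muscle. Its groups overlapped against muscle in aP2-Cre tumors, with a change of -0.14 (95% interval -0.29 to 0.01, adjusted p = 0.102), and it changed by 0.09 in Myogenin-Cre tumors (-0.10 to 0.28, adjusted p = 0.44).

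The ATPases of the base were mostly higher in tumors. Psmc4 was the clearest: the lowest, median and highest log2 intensity were 11.91, 12.14 and 12.26 in aP2-Cre tumors, the values were 12.05, 12.18 and 12.11 in Myogenin-Cre tumors, and 11.41, 11.37 and 11.40 in muscle. All tumors lay above all muscles by a gap wider than the spread inside either tumor group. The change was 0.72 ± 0.07 in aP2-Cre tumors (adjusted p = 3.38e-08) and 0.72 ± 0.10 in Myogenin-Cre tumors (adjusted p = 3.40e-06). Psmc3 changed by 0.59 and 0.71 and Psmc1 by 0.33 and 0.44. Psmc5 had the lowest change among the ATPases and was called in neither comparison, at -0.23 (95% interval -0.52 to 0.06) and -0.09 (-0.46 to 0.29). Psmc2 is uncertain: its brighter probe was 0.17 higher in aP2-Cre tumors (adjusted p = 0.0382) and its dimmer probe changed by -0.56, both past the threshold. The call on the brighter probe was lost without any 1 muscle array, at 0.13 to 0.20 (adjusted p 0.0512 to 0.199), and in the shared array set (0.20, adjusted p = 0.0924).

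Of the 3 other base subunits, Psmd4 was called higher and Psmd2 lower in both kinds of tumor, and Psmd1 was called in neither. Psmd1 was 0.24 in aP2-Cre and 0.06 in Myogenin-Cre tumors, and in the shared array set 0.36 in aP2-Cre tumors (limma, adjusted p = 0.00782). Its probes disagreed over all arrays in aP2-Cre tumors: a second was 0.04 and the dimmest -0.36 (limma over probes, adjusted p = 0.837 and 0.0233). Psmd4, a receptor for ubiquitin, had a lowest, median and highest log2 intensity of 12.73, 13.07 and 13.47 in aP2-Cre tumors, values of 12.91, 13.02 and 13.16 in Myogenin-Cre tumors, and 12.42, 12.33 and 12.63 in muscle. Tumors of both kinds lay above muscle without overlap, with changes of 0.65 ± 0.12 (adjusted p = 9.07e-05) and 0.57 ± 0.16 (adjusted p = 0.00503). In the shared array set the aP2-Cre change of Psmd4 was 0.39 (adjusted p = 0.0236), and in Myogenin-Cre tumors the call was lost with the array set as a term (0.39, adjusted p = 0.0976) and under the authors' values (0.38, adjusted p = 0.124). Psmd2, a scaffold of the base, ranged over 4.98, 5.56 and 6.00 in aP2-Cre tumors, was 5.23, 5.50 and 5.31 in Myogenin-Cre tumors, and was 6.34, 5.93 and 6.18 in muscle. It was detected on 13 of 15 aP2-Cre arrays, 1 of 3 Myogenin-Cre arrays and 3 of 3 muscle arrays, so these levels are close to background. The change was -0.58 ± 0.18 (adjusted p = 0.00725) and -0.80 ± 0.23 (adjusted p = 0.00647), and in aP2-Cre tumors it lost its call in the shared array set (-0.34, adjusted p = 0.129) and without muscle sample 1 (-0.49, adjusted p = 0.0587). Both calls of Psmd2 were also lost under median scaling, at -0.09 in aP2-Cre tumors (adjusted p = 0.699) and -0.44 in Myogenin-Cre tumors (adjusted p = 0.178), and under the authors' values, at -0.13 (adjusted p = 0.0718) and -0.15 (adjusted p = 0.128). With the array set as a term the Myogenin-Cre change was -0.46 (adjusted p = 0.27).

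The lid held both the largest fall and some of the larger rises. Psmd6 had a lowest, median and highest log2 intensity of 5.33, 5.65 and 6.23 in aP2-Cre tumors, values of 6.15, 5.89 and 6.19 in Myogenin-Cre tumors, and 6.89, 6.98 and 7.03 in muscle. Every tumor of either kind was under every muscle sample. The change was -1.25 ± 0.16 in aP2-Cre tumors (2.38-fold lower, adjusted p = 6.09e-07) and -0.89 ± 0.20 in Myogenin-Cre tumors (adjusted p = 0.00107). In the shared array set it was -0.99 in aP2-Cre tumors (adjusted p = 0.00122). Psmd6 lost its Myogenin-Cre call under median scaling (-0.52, adjusted p = 0.104) and with the array set as a term (-0.47, adjusted p = 0.0936), and under the authors' values its changes were -0.48 and -0.33, both still called.

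Psmd13 ranged over 11.80, 12.43 and 12.69 in aP2-Cre tumors (lowest, median, highest), was 12.21, 12.47 and 12.52 in Myogenin-Cre tumors, and was 11.43, 11.60 and 11.54 in muscle. Neither kind of tumor overlapped muscle, and the changes were 0.84 ± 0.16 (adjusted p = 8.72e-05) and 0.88 ± 0.20 (adjusted p = 0.00116). In the shared array set the aP2-Cre change of Psmd13 was 0.43 (adjusted p = 0.0297), and with the array set as a term the Myogenin-Cre call was lost (0.47, adjusted p = 0.0935). Psmd8 ranged over 10.85, 11.81 and 12.23 in aP2-Cre tumors, was 11.83, 11.999 and 12.15 in Myogenin-Cre tumors, and was 11.16, 10.78 and 11.10 in muscle. The aP2-Cre tumors overlapped the muscle values while the Myogenin-Cre tumors stayed above them, and the changes were 0.60 ± 0.25 (adjusted p = 0.0409) and 0.98 ± 0.32 (adjusted p = 0.0161). The call of Psmd8 in aP2-Cre tumors was lost without any 1 muscle array, at 0.49 to 0.68 (adjusted p 0.0653 to 0.176), and in Myogenin-Cre tumors without tumor 43 (0.90, adjusted p = 0.0518) or muscle sample 2 (0.87, adjusted p = 0.0627). Under the authors' values Psmd8 was 0.38 (adjusted p = 0.211) and 0.81 (adjusted p = 0.058), and with the array set as a term its Myogenin-Cre change was 1.88 (adjusted p = 0.000337).

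The deubiquitinase Psmd14, which removes ubiquitin chains as a substrate enters, was called in neither kind of tumor on the quantile scale. Its lowest, median and highest log2 intensity were 8.45, 8.99 and 9.36 in aP2-Cre tumors, the values were 8.81, 8.79 and 9.05 in Myogenin-Cre tumors, and 9.01, 8.78 and 8.89 in muscle. The groups overlapped throughout. The changes were 0.06 (95% interval -0.25 to 0.36) and -0.01 (95% interval -0.40 to 0.39). Under median scaling, which also moved the median of all genes to 0.44, Psmd14 was called higher in aP2-Cre tumors, at 0.498 (adjusted p = 0.0206), and under the authors' values it was -0.08 (adjusted p = 0.654). Of the other lid subunits, Psmd7 was 0.27 higher and Psmd12 0.29 lower in aP2-Cre tumors, with adjusted p-values of 0.0473 and 0.0483, and both lost the call without any 1 muscle array (0.26 to 0.27 and -0.26 to -0.35). In the shared array set Psmd7 was 0.53 (adjusted p = 0.00104) and Psmd12 -0.02 (adjusted p = 0.828). Over all arrays, a dimmer probe of Psmd12 was -0.99 in aP2-Cre tumors (limma over probes, adjusted p = 0.0013). The dimmer probes of Psmd7 were 0.57 (adjusted p = 0.000554) and -0.36 (adjusted p = 0.165) there. Psmd11, another lid scaffold, was -0.32 and -0.18 and was called in neither.

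Of the 3 assembly chaperones with a Psmd symbol, 1 was higher and 1 lower. Psmd10, also known as gankyrin, helps to build the ATPase ring. Its log2 intensity was 9.76, 10.05 and 10.24 in aP2-Cre tumors (lowest, median, highest), 9.70, 10.14 and 9.80 in Myogenin-Cre tumors, and 9.42, 9.15 and 9.20 in muscle. The tumors did not overlap muscle, and the changes were 0.78 ± 0.10 (adjusted p = 1.43e-06) and 0.62 ± 0.14 (adjusted p = 0.000659). The Myogenin-Cre call of Psmd10 was lost with the array set as a term (0.31, adjusted p = 0.142) and under the authors' values (0.47, adjusted p = 0.101). Psmd9 was lower, at -0.48 and -0.60, with adjusted p-values of 0.031 and 0.0432. It was close to background, detected on 13 of 15 aP2-Cre arrays, 2 of 3 Myogenin-Cre arrays and 3 of 3 muscle arrays, and under median scaling its aP2-Cre change was 0.02 and its Myogenin-Cre change -0.25 (adjusted p = 0.525). Under the authors' values Psmd9 was -0.10 in both (adjusted p = 0.24 and 0.412), and in the shared array set it was -0.29 in aP2-Cre tumors (adjusted p = 0.223). Psmd9 also lost the aP2-Cre call without muscle sample 1 (-0.35, adjusted p = 0.19) or 3 (-0.49, adjusted p = 0.0712). Psmd5 was called in neither comparison, at 0.28 and 0.06.

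**Figure D2:**
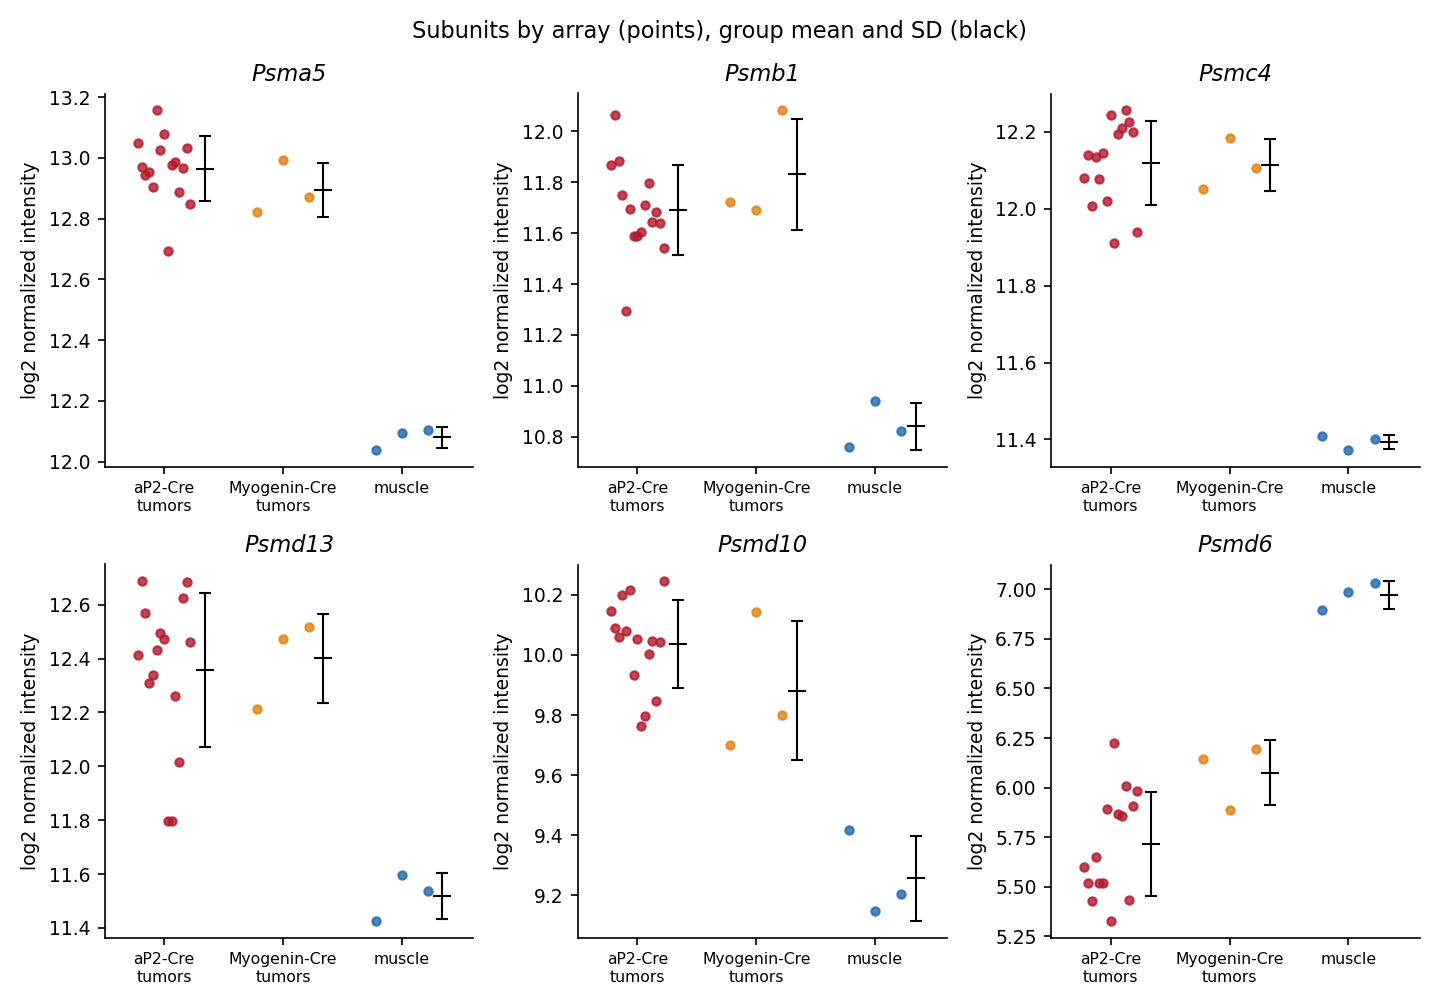
Log2 normalized intensity of 6 subunits on each array (points), with the group mean and SD in black, for aP2-Cre tumors (n = 15), Myogenin-Cre tumors (n = 3) and muscle (n = 3). Psma5, Psmb1, Psmc4, Psmd13 and Psmd10 were higher in every tumor than in any muscle sample, and Psmd6 was lower in every tumor.

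In Myogenin-Cre tumors against muscle, 14 of the 29 subunits were called higher and 3 lower, and 12 were not called. Of all genes, 25.2% were called higher and 23.9% lower. In 17 subunits all 3 tumors lay above all 3 muscles and in 2 below, against 32.1% and 30.4% of all genes, and the median log2 change was 0.16 over the subunits and 0.06 over all genes. The order of these medians turned under median scaling, with 0.24 over the subunits and 0.25 over all genes, and under the authors' values, with 0.04 and 0.08. The 5 largest rises were Psmb1 (0.99), Psmd8 (0.98), Psmd13 (0.88), Psma5 (0.82) and Psmc4 (0.72), and the 3 called lower were Psmd6 (-0.89), Psmd2 (-0.80) and Psmd9 (-0.60). Without each of the 6 arrays in turn, 11 of the 14 higher and 2 of the 3 lower calls were kept in every fit. Psma2 lost its call without tumor 42 or 43 or muscle sample 2 or 3 (0.19 to 0.22), and Psmb3 without tumor 42 or 43 or muscle sample 3 (0.25 to 0.28). Psmd9 lost its call without tumor 41 or 43 or muscle sample 1 or 3 (-0.47 to -0.62). Under the authors' values 4 were called higher and 1 lower, against 19.5% and 17.2% of all genes, so that the share of subunits called higher was then below that of all genes. Both kinds of tumor are set against the same 3 muscle samples, so their values are given side by side and their likeness is not counted as a result. The Myogenin-Cre tumors and the muscles lie in different array sets. With the set as a term, which links them only through the aP2-Cre tumors, 10 subunits were called higher, against 18.4% of all genes. Psmd4, Psmd13, Psmd10, Psmd6 and Psmd2 were among those that then lost their calls, with the values given above, and Psmd9 was -0.37 (adjusted p = 0.306).

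The 2 kinds of tumor were also set directly against each other. In aP2-Cre against Myogenin-Cre tumors, 0 subunits were called higher and 2 lower by limma, against 8.08% and 7.68% of all genes. With 29 subunits, these counts do not set the subunits apart from other genes. At an unadjusted p under 0.05 the counts were 1 higher and 4 lower, and with array weights in limma 1 subunit was called higher. The 2 called lower were the catalytic Psmb5, at -0.98 ± 0.33 (1.97-fold lower, adjusted p = 0.0469), and Psmb6, at -0.23 ± 0.07 (1.17-fold lower, adjusted p = 0.0369). In Psmb6 every aP2-Cre tumor lay below every Myogenin-Cre tumor, the only subunit of the 29 whose groups did not overlap in this comparison. Of all genes, 3.23% had every aP2-Cre tumor above and 2.40% every aP2-Cre tumor below the Myogenin-Cre tumors. The third catalytic subunit, Psmb7, was -0.26 (95% interval -0.51 to -0.02, adjusted p = 0.134). The other 26 subunits ranged from -0.38 to 0.31, with a median of -0.01, and 0 of them were called at an adjusted p under 0.05.

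Neither of these 2 calls was kept when any 1 Myogenin-Cre tumor was left out: Psmb5 was then -0.85 to -1.14 (adjusted p 0.0933 to 0.218) and Psmb6 -0.22 to -0.23 (adjusted p 0.0644 to 0.174). Both were also lost under median scaling, at -0.79 for Psmb5 (adjusted p = 0.137) and -0.14 for Psmb6 (adjusted p = 0.632), and under the authors' values, at -0.86 (adjusted p = 0.0894) and -0.27 (adjusted p = 0.474). A second probe of Psmb6, detected on all 21 arrays, was -0.12 (limma over probes, adjusted p = 0.317). With the mean of its probes Psmb6 was -0.17 (adjusted p = 0.0874). In the array set that holds 3 tumors of each kind, Psmb5 was -0.59 (adjusted p = 0.21) and Psmb6 -0.25 (adjusted p = 0.293). There the 1 subunit called was Psmd8, at -0.99 (adjusted p = 0.0458), where 0.299% of all genes were called higher and 0.109% lower.

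The constitutive catalytic subunits can be replaced in the ring by inducible ones: Psmb8 takes the place of Psmb5, Psmb9 that of Psmb6 and Psmb10 that of Psmb7, which interferon induces and immune cells carry. All 3 were higher in aP2-Cre than in Myogenin-Cre tumors, in every tumor: Psmb8 by 2.15 (adjusted p = 0.000304), Psmb9 by 2.51 (adjusted p = 0.000368) and Psmb10 by 1.02 (adjusted p = 0.00458). The level of Psmb9 averaged 8.60 ± 0.74 (SD) over the 15 aP2-Cre tumors, 6.09 ± 0.49 over the 3 Myogenin-Cre tumors and 7.95 ± 0.39 over the 3 muscles, and was detected on 2 of the 3 Myogenin-Cre arrays. Against muscle, the 3 were not called in aP2-Cre tumors (0.59, 0.65 and 0.30) and were lower in Myogenin-Cre tumors (-1.55, -1.86 and -0.72). Under median scaling all 3 were called higher in aP2-Cre tumors than in muscle, at 1.07 for Psmb8 (adjusted p = 0.0111), 1.17 for Psmb9 (adjusted p = 0.0159) and 0.68 for Psmb10 (adjusted p = 0.0168). In Myogenin-Cre tumors the call of Psmb9 was lost under the authors' values (-0.95, adjusted p = 0.0577) and that of Psmb8 with the array set as a term (-1.55, adjusted p = 0.0639). For each of the 3 pairs the constitutive subunit's mean was lower and the inducible one's higher in aP2-Cre than in Myogenin-Cre tumors. Within the shared array set Psmb8 and Psmb9 kept their calls between the tumors (1.88 and 2.13, adjusted p = 0.0184 and 0.047), and Psmb10 did not (0.69, adjusted p = 0.11). Psmb10 also lost that call without Myogenin-Cre tumor 43 (0.89, adjusted p = 0.0735), and its call against muscle in Myogenin-Cre tumors without any 1 of the 6 arrays (-0.60 to -0.79).

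Between the 2 kinds of tumor, macrophage markers differed in the same direction as the inducible subunits. All 6 measured of 7 listed (Cd68 was not measured) were higher in aP2-Cre tumors than in Myogenin-Cre tumors and than in muscle. In Myogenin-Cre tumors against muscle 1 of them was called higher and 0 lower, against 25.2% and 23.9% of all genes. The 3 inducible subunits were lower there. The markers' summed normalized intensity was 4193 to 11569 in aP2-Cre tumors, 1534 to 2598 in Myogenin-Cre tumors and 871 to 1519 in muscle. Of the T and B cell markers, 3 of 6 were measured and limma called 0 in any comparison, with 1 higher at an unadjusted p under 0.05 in aP2-Cre tumors against each of the other groups. Their sum was 82.2 to 859 in aP2-Cre tumors, 71.5 to 157 in Myogenin-Cre tumors and 93.5 to 109 in muscle. The part of these cells in the values of the catalytic subunits was not tested. Without aP2-Cre tumors 115 and 174, which had the highest Psmb8 levels and were picked after those levels were seen, Psmb5 was -0.90 (adjusted p = 0.0432) and Psmb6 -0.21 (adjusted p = 0.0526) against Myogenin-Cre tumors.

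**Figure D3:**
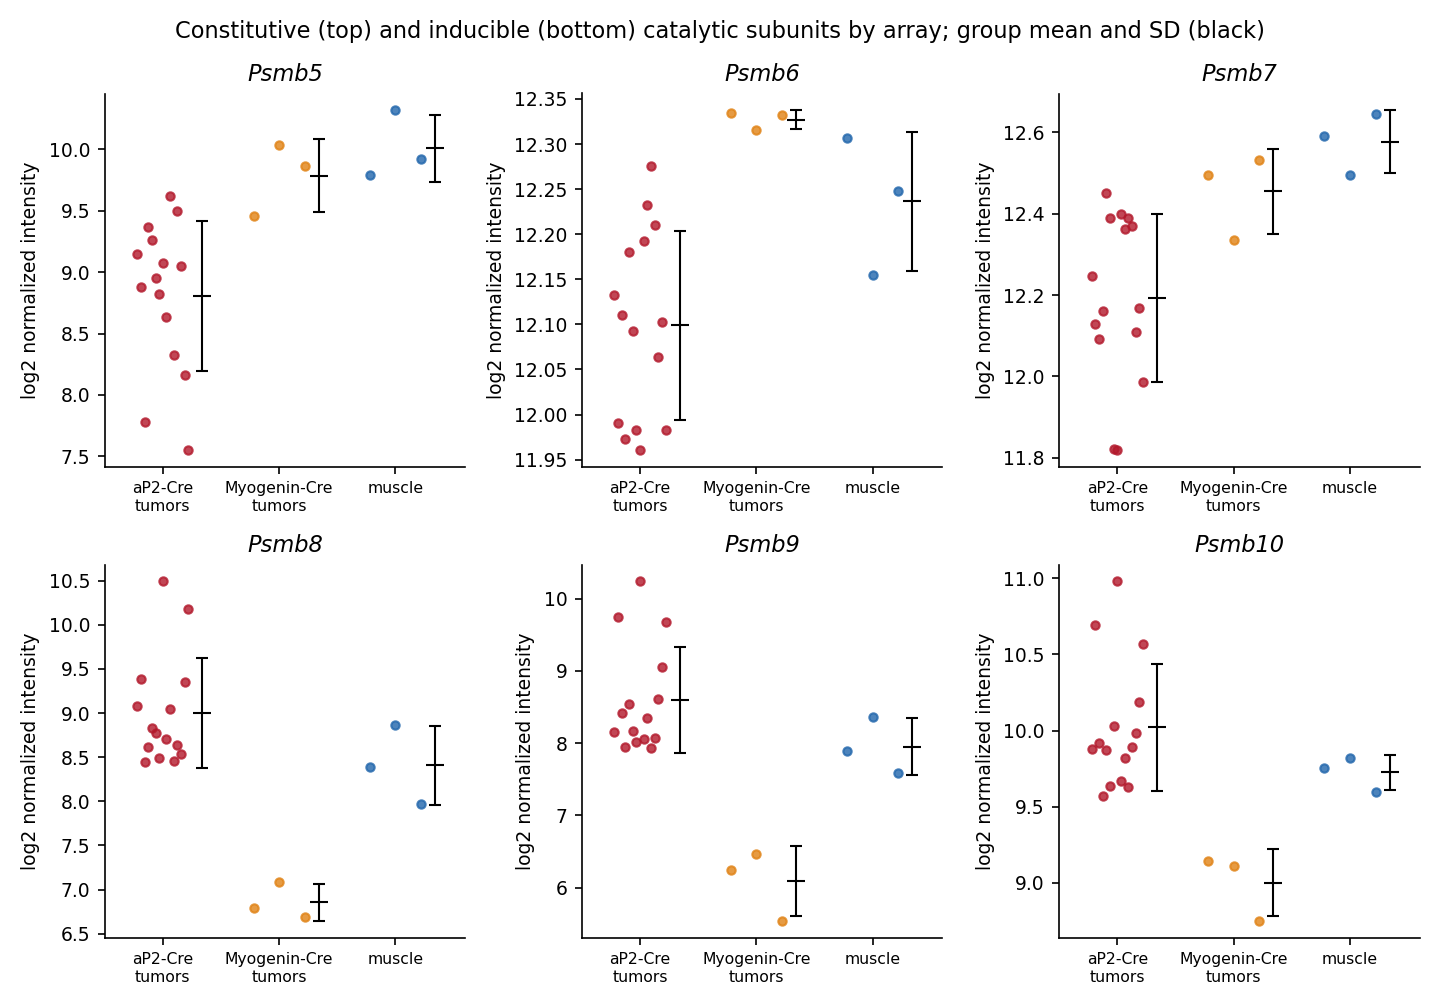
Log2 normalized intensity of the constitutive catalytic subunits (top) and the inducible subunits that replace them (bottom) on each array, with group mean and SD in black, for aP2-Cre tumors (n = 15), Myogenin-Cre tumors (n = 3) and muscle (n = 3). In the bottom row every aP2-Cre tumor lay above every Myogenin-Cre tumor, and in the top row Psmb6 had every aP2-Cre tumor below every Myogenin-Cre tumor.

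Across the 15 aP2-Cre tumors, the partners of each catalytic position were compared, 3 relations in all. Psmb7 and Psmb10 had a Pearson r of -0.684 (permutation p = 0.00884, adjusted 0.0265) and a Spearman rho of -0.720 (permutation p = 0.00304, adjusted 0.00912). Psmb6 and Psmb9 had an r of -0.559 (permutation p = 0.0269, adjusted 0.0403) and a rho of -0.404 (permutation p = 0.136, adjusted 0.203). Psmb5 and Psmb8 had an r of -0.192 (permutation p = 0.487, adjusted 0.487) and a rho of 0.079 (permutation p = 0.781, adjusted 0.781). Tumors 115 and 65 were the 2 farthest from the median of the inducible subunit in both of the first pairs. Without them Psmb7 and Psmb10 kept a relation of similar size, with an r of -0.598 (permutation p = 0.0444, adjusted 0.133) and a rho of -0.641 (permutation p = 0.0208, adjusted 0.0624). Psmb6 and Psmb9 then had an r of -0.336 (permutation p = 0.268, adjusted 0.402) and a rho of -0.215 (permutation p = 0.474, adjusted 0.474), so this relation rested on those tumors. Both relations depended on the scaling, with an r of -0.141 for Psmb7 and Psmb10 and -0.184 for Psmb6 and Psmb9 under median scaling. After each value was centred on its array set, r was -0.434 and -0.4998 (adjusted permutation p = 0.154 for both). Under the authors' normalized values r was -0.014 and -0.107. Each set holds 3 aP2-Cre tumors, too few for a value of its own.

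**Figure D4:**
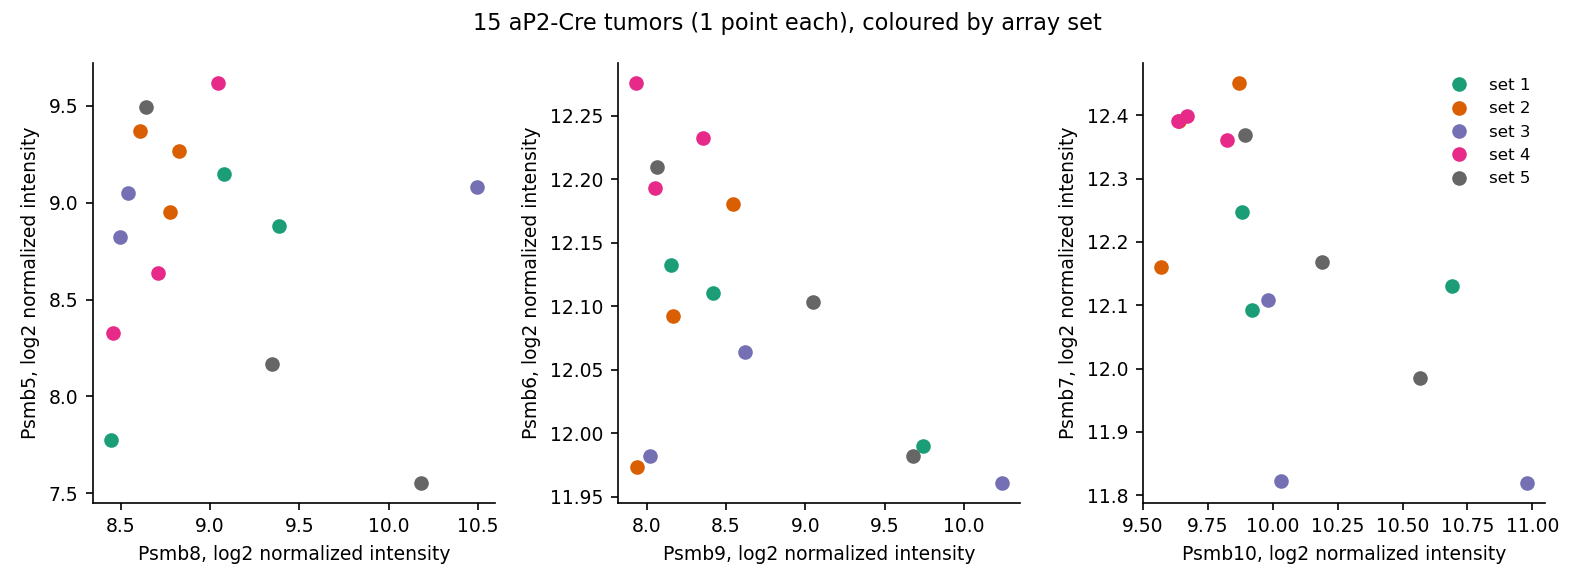
Log2 normalized intensity of each constitutive catalytic subunit (vertical axis) against the inducible subunit that replaces it (horizontal axis) in 15 aP2-Cre tumors, coloured by array set. Tumor 115 had the lowest Psmb7 and the highest Psmb10 (r = -0.684 over 15 tumors), and r was -0.434 after centring on the array set.

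Among the 15 aP2-Cre tumors most subunits varied little. The median SD of the subunits' log2 intensity was 0.192, against 0.276 over all genes, with no matching on signal level, and 22 of the 29 subunits were under that median of all genes. Psma2 had the smallest SD, 0.0787, with a range of 0.29 from the lowest to the highest tumor. Psmb5 was the most variable, with an SD of 0.612 and a range of 2.06, at the 91.5th percentile of all genes. Psmd8 followed with an SD of 0.472 and a range of 1.38, at the 84.1st percentile. Over the 406 pairs of subunits the median r across the 15 tumors was 0.181, against 0.0021 over all pairs of genes, a description of arrays that share scaling and sets. The mean deviation of the 29 subunits from their averages ran from -0.152 in tumor 104 to 0.147 in tumor 144.

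**Figure D5:**
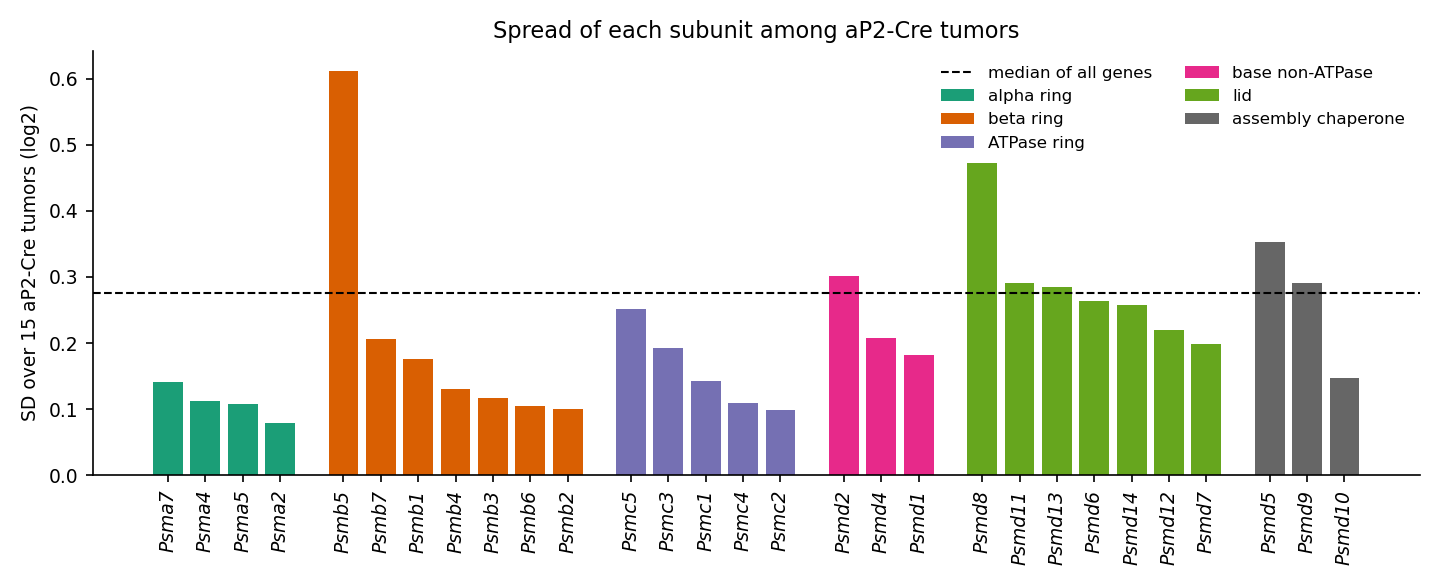
SD of log2 normalized intensity over 15 aP2-Cre tumors for each of the 29 subunits, grouped by place in the proteasome; the dashed line is the median over all genes, 0.276. Psmb5 (0.612) and Psmd8 (0.472) stand above the rest, and 22 subunits are under the line.

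Genes that work with the proteasome had calls in both directions. Their counts stand against the 34.0% of all genes called higher and 29.8% called lower in aP2-Cre tumors than in muscle, and the 25.2% and 23.9% in Myogenin-Cre tumors. Of the activators and their inhibitor, 4 of 5 were measured, 3 were lower in aP2-Cre tumors and 3 lower in Myogenin-Cre tumors against muscle. Psme1, a subunit of the PA28 activator that opens the alpha gate, changed by -0.44 (adjusted p = 0.0068) and -1.004 (adjusted p = 6.91e-05), and was 0.56 higher in aP2-Cre than in Myogenin-Cre tumors (adjusted p = 0.00804). Its partner Psme2 changed by -0.37 and -0.48, the nuclear activator Psme3 by -0.50 (adjusted p = 0.0258) in aP2-Cre tumors, and Psme4 by -0.37 (adjusted p = 0.0382) in Myogenin-Cre tumors. Under median scaling Psme2 in aP2-Cre tumors was 0.15, the opposite direction, and Psme1 was -0.26 (adjusted p = 0.282). Psme1 lost its aP2-Cre call without muscle sample 2 (-0.36, adjusted p = 0.0591), and its call between the tumors without Myogenin-Cre tumor 43 (0.47, adjusted p = 0.114) and in the shared array set (0.45, adjusted p = 0.183). Psme3 lost its call without any 1 muscle array (-0.49 to -0.51, adjusted p 0.0678 to 0.0779) and in the shared array set (-0.14), and Psme4 without tumor 42 or 43 or any 1 muscle array (-0.30 to -0.40).

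Of 6 listed assembly factors 4 were measured. Pomp, which matures the beta ring, was higher in both kinds of tumor, at 0.57 (adjusted p = 5.05e-05) and 0.48 (adjusted p = 0.00502), in every tumor. Pomp was 0.29 in aP2-Cre tumors in the shared array set (adjusted p = 0.0116), and its Myogenin-Cre call was lost with the array set as a term (0.20, adjusted p = 0.178) and under the authors' values (0.29, adjusted p = 0.163). Psmg1, which builds the alpha ring, was lower in both, at -0.52 (adjusted p = 0.000442) and -0.46 (adjusted p = 0.0136), again in every tumor; under median scaling it was -0.02 (adjusted p = 0.928) and -0.15 (adjusted p = 0.654), and without Myogenin-Cre tumor 41 -0.31 (adjusted p = 0.103). Of 7 factors bound to the cap, 4 were measured: 1 was lower in aP2-Cre tumors and 4 lower in Myogenin-Cre tumors. The deubiquitinase Uchl5 was lower in every tumor of both kinds, at -0.93 (adjusted p = 4.12e-06) and -0.80 (adjusted p = 0.000747). Uchl5 was -0.58 in aP2-Cre tumors in the shared array set (adjusted p = 0.00121), and its Myogenin-Cre call was lost with the array set as a term (-0.40, adjusted p = 0.0963) and under median scaling (-0.61, adjusted p = 0.125). In Myogenin-Cre tumors Sem1, a small lid subunit, was -0.42 (adjusted p = 0.0238) and the ligase Ube3c -0.40 (adjusted p = 0.0204). Sem1 lost its call without tumor 41 or any 1 muscle array (-0.39 to -0.43), and Ube3c without tumor 41 or 43 or muscle sample 3 (-0.33 to -0.37); the mean of its probes was 0.23. Of 8 shuttle factors, which carry ubiquitinated proteins to the proteasome, 5 were measured and 2 were lower in aP2-Cre tumors: Ubqln4 at -0.94 (adjusted p = 0.000286) and Rad23b at -0.48 (adjusted p = 0.000902). Both lost the call under median scaling, at -0.55 (adjusted p = 0.104) and -0.09 (adjusted p = 0.728). In Myogenin-Cre tumors Ubqln4 was called at -0.63 (adjusted p = 0.0461), but not without any 1 of the 6 arrays (-0.60 to -0.65). Of 7 cofactors of Vcp all were measured and 1 was lower in both kinds of tumor, Faf1, at -0.41 (adjusted p = 0.000495) and -0.40 (adjusted p = 0.00831; -0.28, adjusted p = 0.0702, without Myogenin-Cre tumor 42). Of 6 genes for ubiquitin and its activating enzymes only Uba6 was measured, and it was not called.

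Among 11 listed regulators of the subunit genes 9 were measured, and 3 were higher and 2 lower in aP2-Cre tumors than in muscle, shares of 9 genes near the 34.0% and 29.8% of all genes. Vcp, the segregase that extracts Nfe2l1 from the endoplasmic reticulum, was 0.58 higher (adjusted p = 6.93e-05), and 0.40 higher in Myogenin-Cre tumors (adjusted p = 0.021; lost without tumor 42 or muscle sample 1 or 2, 0.36 to 0.39). Mafg, a partner of Nfe2l1 on DNA, was 0.54 higher in aP2-Cre tumors (adjusted p = 0.00338). Maff, another partner, was higher (adjusted p = 6.21e-05) but was detected on 13 of 15 aP2-Cre arrays and 0 of 3 muscle arrays at levels too low for a fold. Nfyb, a subunit of NF-Y, was lower in every tumor, at -0.93 (adjusted p = 3.52e-05) and -0.998 (adjusted p = 0.000459). Keap1, the inhibitor of Nfe2l2, was -0.32 in aP2-Cre tumors (adjusted p = 0.0276); under median scaling it was 0.02, and without muscle sample 2 or 3 the call was lost (-0.26 and -0.31).

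Genes listed for muscle protein breakdown had calls in both directions. The list also holds Cavin4, which encodes a caveolar protein rather than a breakdown factor. Cavin4 is among the 2 called higher in each kind of tumor. Of 10 listed, 9 were measured, and in aP2-Cre tumors 5 were lower and 2 higher than in muscle, against 29.8% and 34.0% of all genes, with a median log2 change of -1.42. In Myogenin-Cre tumors 4 were lower, 2 higher and 3 not called, against 23.9% and 25.2% of all genes, with a median of -0.26. The muscle ligase Fbxo40 changed by -2.84 (adjusted p = 1.18e-06) and -1.61 (adjusted p = 0.00902), and the muscle protease Capn3 by -2.51 (adjusted p = 1.11e-09) and -2.80 (adjusted p = 3.37e-08). Both were lower in every tumor than in any muscle sample, and Fbxo40 lost its call in Myogenin-Cre tumors without tumor 42 (-1.23, adjusted p = 0.0643). Cavin4, a protein of muscle caveolae, was higher in both, at 0.87 (adjusted p = 1.41e-05) and 0.46 (adjusted p = 0.0401; lost without tumor 42 or any 1 muscle array, 0.27 to 0.51). Foxo3, a transcription factor that drives atrophy genes, was higher in aP2-Cre tumors (adjusted p = 0.0025), but was detected on 10 of 15 aP2-Cre arrays and 0 of 3 muscle arrays at levels too low for a fold. Klf15, a factor of muscle catabolism, was lower in both, and was detected on 2 of 15 aP2-Cre arrays, 1 of 3 Myogenin-Cre arrays and 3 of 3 muscle arrays. Foxo1, a related factor, was 0.66 higher in Myogenin-Cre tumors (adjusted p = 0.0487; lost without tumor 42 or 43 or any 1 muscle array, 0.45 to 0.74). The atrophy ligases Trim63 and Fbxo32 were lower in aP2-Cre tumors, at -1.57 (adjusted p = 0.00185) and -1.46 (adjusted p = 0.00396), and were -0.26 and 0.12 in Myogenin-Cre tumors (adjusted p = 0.701 and 0.875). Set directly against Myogenin-Cre tumors, aP2-Cre tumors had less Fbxo32 (-1.58, adjusted p = 0.0141), Trim63 (-1.31, adjusted p = 0.0327) and Fbxo40 (-1.23, adjusted p = 0.032). Those 3 calls were lost in the shared array set (-1.02, -0.73 and -0.99) and without Myogenin-Cre tumor 41 or 43. The summed intensities of mature muscle markers, given above, overlapped between the 2 kinds of tumor. By limma 0 of these 8 markers were called between the tumors, against 8.08% of all genes higher and 7.68% lower. At an unadjusted p under 0.05, 3 were lower and 0 higher in aP2-Cre tumors, and the median log2 change was -0.40. The part of muscle content in the ligase values was not tested.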

How the data were processed

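Labelled cRNA was made from total RNA of all 21 samples and hybridised to Illumina bead arrays, per the labels' protocols. The authors deposited a table of intensity values without normalization, with a detection p-value per probe and array, and a second table of intensity values that they had normalized, per the file headers. Per the submitters' processing notes BeadStudio was used; the sources used here do not give its version or the probes' genome build. The second table was found to be quantile-normalized in 5 separate array sets and was used as an alternative. Every column matched a sample (0 columns without one).

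From the table without normalization, background was corrected and arrays were quantile-normalized in limma 3.58.1 (R 4.3.3; normexp on detection p-values, offset 16, log2). Probes with a detection p under 0.01 on at least 3 of 21 arrays were kept, 19655 of 45281, and the probe with the highest mean stood for a gene, giving 11034 genes. Of all probes, 34885 had 1 gene symbol. A single limma model over the 3 groups, with a trend in the variance, gave log2 changes, moderated standard errors, and Benjamini-Hochberg adjusted p-values over all genes for 3 comparisons. The fits were tested on simulated data. The levels are log2 normalized intensities of 1 probe and are not compared between genes. The number of arrays limits the precision. Correlations used permutation tests with 100000 resamples, two-sided, in Python 3.11.15 with scipy 1.17.1. The figures were drawn with matplotlib 3.10.9.

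The members and gene lists were chosen with earlier results of these data known. Genes were named by rule: in each comparison the 5 called members with the largest change in each direction, the highest and lowest member of each subcomplex, the catalytic subunits, Psmd4, Psmd14, members whose probes disagreed in call, and up to 3 called genes of each pathway list per direction and comparison. The alternatives were another offset (50), no background subtraction, median scaling, the authors' normalized values, no detection filter or a stricter one, the mean of all probes, array weights, no trend, the array set as a term or on its own, and leaving out single arrays. Those added after seeing the data left out aP2-Cre tumors 115 and 174, and used the authors' values within 1 set.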

Additional observations from a re-analysis of the deposited data

Results flagged for a closer look

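The log2 change differed between aP2-Cre and Myogenin-Cre tumors, by limma over all arrays, for 10 of the genes named here. Of all genes, 8.08% were called higher and 7.68% lower in this comparison. Some genes were named because they were called in it, so the count of 10 follows partly from the naming. Among the catalytic subunits these were Psmb5 (-0.98, adjusted p = 0.0469) and Psmb6 (-0.23, adjusted p = 0.0369). Among the inducible subunits and the activator they were Psmb8 (2.15, adjusted p = 0.000304), Psmb9 (2.51, adjusted p = 0.000368), Psmb10 (1.02, adjusted p = 0.00458) and Psme1 (0.56, adjusted p = 0.00804). Among the muscle ligases they were Trim63 (-1.31, adjusted p = 0.0327), Fbxo32 (-1.58, adjusted p = 0.0141) and Fbxo40 (-1.23, adjusted p = 0.032). The last was Ube4b, a ubiquitin ligase that works with Vcp (-0.33, adjusted p = 0.042). In the array set that holds 3 tumors of each kind, Psmb8 and Psmb9 kept an adjusted p under 0.05 and the other 8 did not.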

How the results depend on the processing

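No paired analysis was possible because the groups share no replicate numbers. Subunits called higher in aP2-Cre tumors than in muscle numbered 16, and 6 under the authors' values (13 to 13 without single muscle arrays). Those called lower numbered 6, and 2 under median scaling, with the array set as a term, in the shared array set, and with the authors' values in that set (3 to 5 without single muscle arrays). In Myogenin-Cre tumors against muscle 14 were higher, and 4 under the authors' values (11 to 14 without single arrays), and 3 were lower, but 0 under median scaling or with the set as a term and 1 under the authors' values (2 to 3 without single arrays). Between the tumors 0 were higher, but 1 with array weights, and 2 were lower, but 0 under median scaling, the authors' values, no detection filter or no trend, and 1 with the mean of probes, the set as a term, the shared set, the authors' values in that set, or without tumors 115 and 174 (0 to 0 without single Myogenin-Cre tumors).

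The correlation of Psmb6 with Psmb9 was -0.184 under median scaling, -0.107 under the authors' values, -0.4998 after centring on the set and -0.336 without the farthest tumors. That of Psmb7 with Psmb10 was -0.141, -0.0139, -0.434 and -0.598 in the same order, and that of Psmb5 with Psmb8 was 0.122 without tumors 115 and 174.

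Signs turned in a few cases. Against muscle in aP2-Cre tumors, Psmc2 was -0.057 and Psmd14 -0.078 under the authors' values, Psmc2 was -0.19 with the mean of probes, and Psmd14 was -0.00089 to 0.12 without single muscle samples, the lowest without muscle sample 2. Under median scaling Psmd9 was 0.025, Keap1 0.023 and Psme2 0.15. Psmb10 was -0.017 with the set as a term, -0.017 in the shared set and -0.016 with the authors' values there. In Myogenin-Cre tumors Psmb6 was -0.10 under the authors' values, and Ube3c, a ligase on the cap, was 0.23 with the mean of probes. Median scaling moved the median over all genes to 0.25 in Myogenin-Cre tumors against muscle and to 0.17 between the tumors, and the share of genes called higher and lower to 26.7% and 12.7%, and to 9.37% and 2.05%. The causes were not tested. Signal near background limits Psmd2, Psmd6 and Psmd9, and 3 arrays a group limit both comparisons with Myogenin-Cre tumors.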
